A study of Mus musculus with 28 samples.

Results

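The effect of a myocardial infarction (MI) made at postnatal day 7 was followed from 3 to 21 days after the operation in the left ventricle of the mouse. The 14 libraries of mice operated at day 7 were taken from the 28 libraries of the series by their labels, with no use of measured values: 7d-SHAM + 3 and 7d-MI + 3 (n = 4 each) and 7d-SHAM + 21 and 7d-MI + 21 (n = 3 each). All were male Hsd:ICR(CD-1) mice, an outbred stock, with no transgene or drug. MI was made by tying the left anterior descending coronary artery in pups cooled on ice, and sham mice had the surgery without the ligation. RNA was taken from the left ventricular wall at a distance from the infarct (the remote zone). Whether 1 library is always 1 mouse is not said in the labels, so p-values measure the spread between libraries. That spread was estimated with the day-1 groups of the same follow-up in the fit, and for the difference between follow-ups with all 28 libraries. The 3-day libraries were made with a TruSeq stranded total RNA kit and the 21-day libraries with a ScriptSeqV2 kit. MI was therefore set against sham within each follow-up, and levels were never compared across follow-ups.

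An infarct is first cleared by neutrophils and macrophages, then filled by fibroblasts that lay down collagen and a provisional matrix, and last matured into a cross-linked scar. The surviving muscle meets higher wall stress, turns on genes of the fetal heart and, in failing hearts, lowers the genes for burning fatty acids. The mouse heart replaces lost muscle if it is injured in the first days of life, and heals by scar when it is injured a week after birth.

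Some libraries stood apart before any gene was compared. In 7d-SHAM + 21, replicates 2 and 3 held 537 and 1298 CPM on olfactory and vomeronasal receptor genes, which heart muscle is not known to use. Replicate 1 held 25.8 and 7d-MI + 21 held 33.0 to 104. These receptor values were scaled to the counts on nuclear protein-coding genes only. All other CPM values were scaled to the size of the library. Nuclear protein-coding genes took 37.0% and 18.1% of counts in sham replicates 2 and 3. They took 45.2% in replicate 1 and 45.8% to 62.7% in 7d-MI + 21. The receptor values are therefore no shares of all counts. Sham replicates 2 and 3 also held counts on 35464 and 34560 genes, against 25059 in replicate 1. Loci of ribosomal RNA took 0.825% to 63.8% of counts in 7d-SHAM + 21 and 8.05% to 38.2% in 7d-MI + 21. At 3 days these loci took 0.257% or less, but protein-coding genes of the mitochondrial genome took 31.9% to 37.2% of counts in sham and 21.2% to 23.9% in MI libraries. Total counts per library were 39971405 to 51942648 at 3 days and 43792265 to 113996785 at 21 days. All libraries of 7d-SHAM + 21 share 1 prefix in their titles and all of 7d-MI + 21 another. Group and whatever this prefix stands for therefore cannot be told apart, and the same holds for 7d-SHAM + 3. Where the 21-day log2 fold change of a gene named below moved by more than 1.5 times in fold or turned in sign with 7d-SHAM + 21 replicate 1 as the only sham, that value is given too, with no test.

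At 3 days after MI much of the transcriptome had changed. Of 20345 genes tested 6910 passed an adjusted p under 0.05 (34.0%, and 42.3% at an unadjusted p under 0.05), 4024 higher (19.8%) and 2886 lower (14.2%) in 7d-MI + 3. At 21 days none of 24646 genes passed in edgeR (0.0%), with a smallest adjusted p of 0.068, although 4111 had an unadjusted p under 0.05 (16.7%), 1555 higher (6.31%) and 2556 lower (10.4%). DESeq2 called 988 genes at 21 days (335 higher, 1.36%, and 653 lower, 2.65%) and limma-voom called 14. The biological coefficient of variation, the spread between libraries within a group, was 0.331 at 3 days and 0.567 at 21 days. It was estimated over all groups of a follow-up, those of day 1 included. Among these is 1d-SHAM + 21 replicate 2, where loci of ribosomal RNA took 78.1% of counts. With the 7d groups alone in the fit, 7776 genes passed at 3 days and 0 at 21 days. The median log2 fold change of all genes was 0.08 at 3 days and -0.13 at 21 days, and moved to -0.53 (no filter on low counts) or 0.17 (replicate 1 as the only sham), so a small shift at 21 days has no fixed sign.

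Whether the MI effect itself changed between follow-ups was tested in 1 fit of all 28 libraries. There 1320 of 26250 genes passed (5.03%), 511 with a higher (1.95%) and 809 with a lower (3.08%) effect at 21 days than at 3 days. At an unadjusted p under 0.05 the effect was higher at 21 days for 8.92% of genes. This split turned to 942 higher and 664 lower with scaling that leaves out the 20 most abundant genes, and to 592 and 1362 with RLE scaling. Genes tested at both follow-ups (19765) were then sorted by calls and by level. By calls, a gene changed at 3 days was resolved where the difference passed towards 0, reversed where it passed and the sign at 21 days was opposite, persistent where both follow-ups passed, and late where only the 21-day test passed. On that basis 269 genes were resolved and 827 reversed, none was persistent or late, and 5759 genes changed at 3 days could be placed nowhere. Among the reversed genes 287 had a 21-day log2 fold change under 0.5 in size and 261 of 1 or more, so that for many the opposite sign was small.

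By level, which is a description with no test, 3302 genes that passed at 3 days with a log2 fold change of at least 1 in size were followed. Of these, 344 were persistent, with a log2 fold change of at least 1 in the same direction at 21 days and no overlap between MI and sham libraries: 274 higher and 70 lower. Another 1411 were resolved, with a change under 0.5 and overlap (860 that had been higher, 551 lower), 56 had reversed, and 1491 lay between. A further 367 genes were late, under 0.5 and not passing at 3 days but past 1 without overlap at 21 days (153 higher, 214 lower). Among all genes tested at both follow-ups, 622 (3.15%) met the 21-day criterion upwards and 676 (3.42%) downwards.

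**Figure D1:**
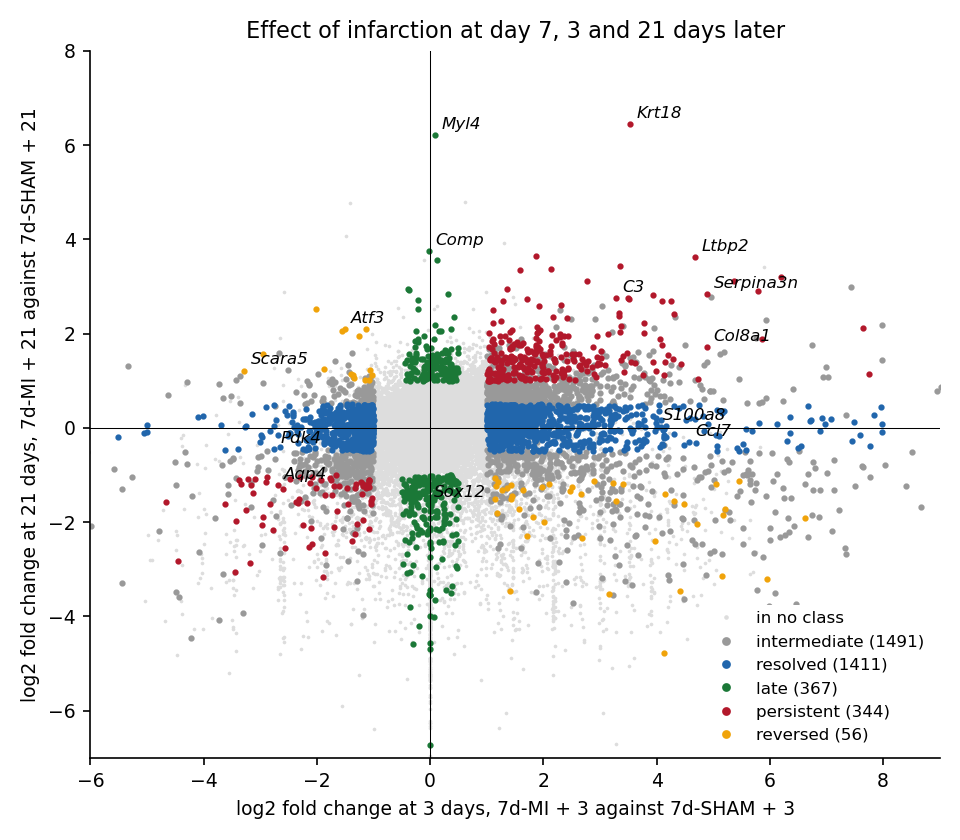
Each point is 1 of 19765 genes, with the log2 fold change of 7d-MI + 3 against 7d-SHAM + 3 on the x axis and of 7d-MI + 21 against 7d-SHAM + 21 on the y axis, coloured by its class by level (25 genes lie outside the axes). The 344 persistent genes lie mostly in the upper right corner, the 1411 resolved genes along the x axis, and the 367 late genes along the y axis.

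Class sizes depended on which 21-day libraries were used. With replicate 1 as the only sham, 7d-SHAM + 21 has no spread of its own, and the fit took the spread from the other groups. Calls kept or lost in that setting are therefore a description and no test of a gene. Without 7d-SHAM + 21 replicate 1, 5903 genes passed at 21 days, and without replicates 2 and 3 together 8 passed. With replicate 1 as the only sham, 124 genes passed in the difference, 44 were resolved and 72 reversed by calls, 33 and 46 of them also so with all shams. By level 222 of 344 persistent genes stayed persistent, 445 of 1411 stayed resolved, 22 of 56 stayed reversed and 145 of 367 stayed late. The split by direction moved as well: with replicate 1 alone 814 persistent genes were higher and 108 lower, 711 late genes were higher and 197 lower, and 24 of the reversed genes had risen and 56 fallen at 3 days. Upper-quartile scaling gave 128 persistent genes higher and 110 lower, and 75 late genes higher and 296 lower, and scaling without the 20 most abundant genes gave 258 late genes higher and 154 lower. Of 60 named genes with a called difference, 44 lost the call with replicate 1 alone, 2 turned in sign, and 14 kept it: Ccl7, C3ar1, C5ar1, Trem2, Itgam, Hmox1, Plau, Egr1, Slc2a1, Ccn5, Mfap4, Scara5, Efhd1 and Sult1a1.

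**Figure D2:**
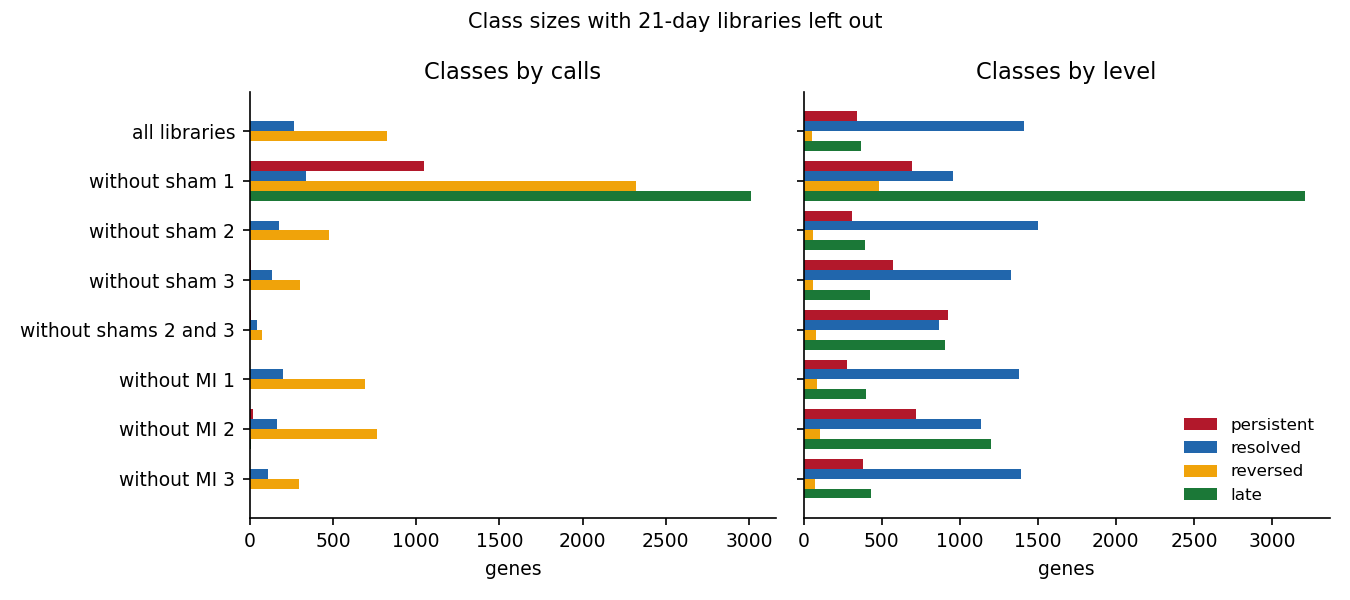
Bars give the number of genes in each class by calls (left) and by level (right) when the named 21-day libraries were left out of the fit (x axis, genes). Without 7d-SHAM + 21 replicate 1 the late class held 3209 genes by level and 3012 by calls, and with all libraries 367 and 0.

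The gene lists divided along the same lines. List counts below are to be read beside the shares of all genes. At 3 days 19.8% passed as higher and 14.2% as lower. At 21 days 6.31% were higher and 10.4% lower at an unadjusted p under 0.05 in edgeR, and the difference passed for 5.03%. Inflammatory, neutrophil and mitotic lists had their high median at 3 days. Lists of matricellular matrix, collagens, proteoglycans and wall stress had a higher median at 21 days than at 3 days, and cross-linking enzymes a lower one (1.79, then 1.07). Lists of fuel burning and the sarcomere were low at 3 days and near 0 at 21 days when all shams were used.

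**Figure D3:**
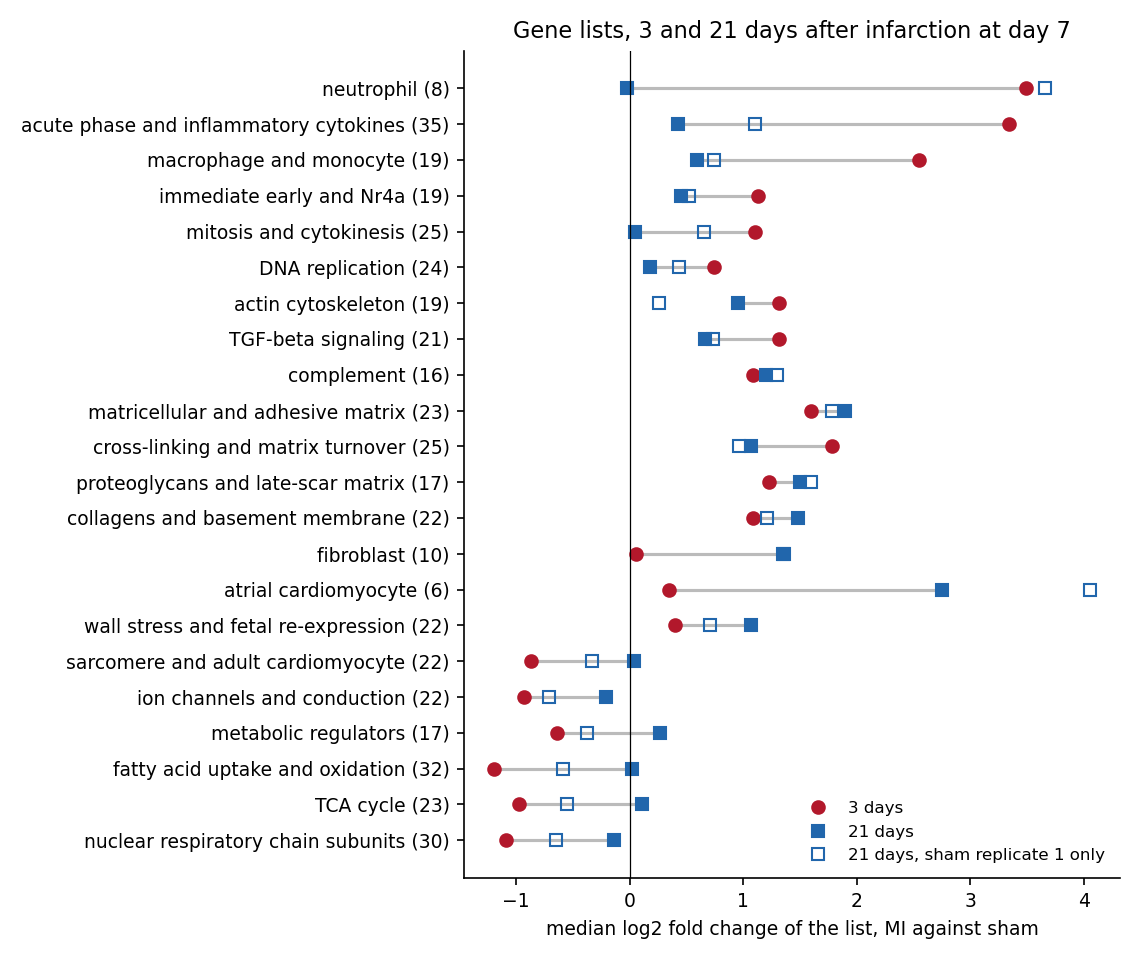
Each row is a gene list with the number of its genes tested at both follow-ups, and the x axis gives its median log2 fold change of MI against sham at 3 days (circles), at 21 days (filled squares) and at 21 days against 7d-SHAM + 21 replicate 1 alone (open squares). The neutrophil list goes from 3.49 to -0.02, or to 3.66 against replicate 1 alone, whereas the matricellular list stays at 1.6, 1.9 and 1.79.

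Most acute-phase and cytokine genes rose steeply at 3 days. Of 35 genes on this list 28 passed as higher and none as lower at 3 days, with a median log2 fold change of 3.34. At 21 days the median was 0.43, or -0.02 with upper-quartile scaling and 1.1 with sham replicate 1 alone, where 29 of the 35 were positive. With all shams 8 had an unadjusted p under 0.05 as higher and 1 as lower, and the difference passed for 15, each with a lower effect at 21 days. S100a8, a calcium-binding protein that neutrophils release, read 2.65, 1.55, 1.95 and 1.9 CPM in the 4 sham and 22.6, 34.3, 40.5 and 31 CPM in the 4 MI libraries at 3 days (log2 fold change 4.0 ± 0.22, adjusted p = 9.4e-10). Its 21-day values were 0.0213, 0.107 and 0.755 CPM in sham and 0.211, 0.42 and 0.208 CPM in MI, and the difference passed (difference -3.52, adjusted p = 0.03). With sham replicate 1 alone the difference was -0.38 and did not pass. At 3 days every MI library was above every sham library, and at 21 days the groups overlapped. Set against sham replicate 1 only, the 21-day log2 fold change was 3.66 for S100a8.

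Ccl7, a chemokine that draws monocytes, read 0.85, 0.248, 0.359 and 0.217 CPM in 7d-SHAM + 3 and 12, 6.67, 7.89 and 12.5 CPM in 7d-MI + 3 (log2 fold change 4.57 ± 0.47, adjusted p = 7.7e-07). In the 21-day libraries it read 0.884, 1.38 and 0.755 CPM in sham and 0.792, 1.03 and 0.633 CPM in MI libraries, which overlapped (difference -4.81, adjusted p = 2.2e-04). Saa3, an acute-phase apolipoprotein, read 0, 0, 0 and 0.109 CPM in sham and 2.6, 4.74, 20.1 and 5.94 CPM in MI at 3 days (log2 fold change 8.04 ± 0.98, adjusted p = 1.2e-05). MI libraries did not overlap with sham for either gene at 3 days, and replicate 3 was the highest for Saa3. At 21 days Saa3 read 0.0213, 0.269 and 1.73 CPM in sham and 0.541, 0.162 and 0.386 CPM in MI, with the highest value in sham replicate 3. Clec4e, a receptor for dead cells and fungal lipids, took the same form, with 0.0213, 0.358 and 1.95 CPM in sham and 0.858, 0.307 and 0.475 CPM in MI at 21 days after a log2 fold change of 6.49 ± 0.83 at 3 days.

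For these low counts the background-rich shams mattered. With replicate 1 as the only sham the 21-day log2 fold change was 4.07 for Saa3, 4.66 for Clec4e, 10.05 for Cemip and 7.23 for Mmp8, where it was -0.79, -0.43, -0.66 and -1.19 with all shams. Cemip cleaves hyaluronan and Mmp8 is a collagenase of neutrophils, and both had no count in sham replicate 1, so that their values there depend on the prior count and are no size. The same holds in part for S100a8, Spp1, Krt18 and Myl7, which had few counts in it (under 0.1 CPM). Of 120 genes chosen by the naming rule, 17 had the other sign at 21 days with that sham alone. The opposite sign of Saa3, Clec4e, Cemip and Mmp8 at 21 days was thus absent with replicate 1 as the only sham.

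Genes of wound macrophages also rose. Spp1, the secreted phosphoprotein osteopontin, read 0.136, 0.867, 0.154 and 0.109 CPM in sham and 1301, 614, 221 and 496 CPM in MI libraries at 3 days (log2 fold change 11.04 ± 1.38, adjusted p = 5.5e-05). At 21 days it read 0.0639, 0.0358 and 5.24 CPM in sham and 27.9, 0.436 and 9.61 CPM in MI, so that 2 MI libraries were above all shams and the other was not (difference -7.94, adjusted p = 0.041). Arg1, arginase of wound macrophages, read 0.068, 0.155, 0.154 and 0 CPM in sham and 56.9, 65, 29.4 and 41.1 CPM in MI at 3 days (log2 fold change 8.95 ± 0.89, adjusted p = 6.0e-06). Its values at 21 days were 0.117, 0.233 and 0.311 CPM in sham and 0.343, 0.323 and 0.445 CPM in MI, under 1 CPM in every library (difference -7.99, adjusted p = 0.0016). Every MI library was still above every sham for Arg1 at 21 days, by a small margin. Hal, histidine ammonia-lyase, and Adam8, a membrane protease of leukocytes, had log2 fold changes of 7.97 ± 1.07 and 7.03 ± 0.71 at 3 days and of 0.43 ± 0.67 and 1.08 ± 0.68 at 21 days. Against sham replicate 1 alone, the 21-day log2 fold change was 7.66 for Spp1, 1.69 for Arg1, 2.51 for Hal and 2.07 for Adam8.

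Sprr1a, a small proline-rich protein made by stressed cardiomyocytes and injured nerves, had no count in any of the 4 sham libraries at 3 days and read 15.7, 16.3, 10.03 and 9.28 CPM in MI libraries. Against a floor of 3 counts over the sham group it was at least 589-fold higher. Its 21-day values were 0, 0.269 and 0.444 CPM in sham and 0.0198, 0 and 0 CPM in MI, where no change can be read. Its promoter is shown with those of C3ar1, the receptor for complement fragment C3a, and Osmr, the receptor subunit for oncostatin M. All 3 genes rose at 3 days and hold the letters TGANTCA close to their start. This is a loose form of the AP-1 motif, with N any base. C3ar1 and Osmr had a smaller effect at 21 days. Other named genes with the motif include Trem2, Hal and Xirp2, which rose at 3 days, and Ndufa5, Uqcrh and Fbp2, which fell. Windows of RefSeq promoters (250 bases before to 50 after the start, GRCm38.p6) are printed 5′ to 3′ on the strand of the gene, with each match in capitals.

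Sprr1a, chr3:92485961-92486027 (-): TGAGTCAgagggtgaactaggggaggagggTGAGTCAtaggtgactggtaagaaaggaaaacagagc

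C3ar1, chr6:122856143-122856209 (-): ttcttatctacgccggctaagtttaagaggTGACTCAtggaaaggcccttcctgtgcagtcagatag

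Osmr, chr15:6874274-6874340 (-): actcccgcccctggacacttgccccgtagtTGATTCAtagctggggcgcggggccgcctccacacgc

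The Sprr1a window holds a pair of matches and the others 1 each. Searched on both strands, the motif was in the promoters of 2425 of 27025 genes (9.0%), of 6 of the 25 acute-phase genes with an entry (24.0%) and of 1 of the 15 matricellular genes with an entry (6.7%). No binding was measured. C3ar1 itself read 4.55, 3.4, 3.69 and 3.15 CPM in sham and 79.96, 74.2, 55.5 and 67.3 CPM in MI at 3 days (log2 fold change 4.23 ± 0.3, adjusted p = 3.1e-08). C3ar1 read 7.16, 9.64 and 12.3 CPM in sham and 18.7, 10.7 and 15 CPM in MI at 21 days (difference -3.54, adjusted p = 1.3e-04). Osmr read 8.02, 8.02, 7.79 and 7.41 CPM in sham and 49.8, 63.9, 47.7 and 58.6 CPM in MI at 3 days. Osmr read 8.42, 10.5 and 13.1 CPM in sham and 29.7, 13 and 16.5 CPM in MI at 21 days, with MI replicate 2 inside the range of the shams (difference -1.85, adjusted p = 0.0039).

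Immediate early genes, which code for AP-1 and other fast transcription factors, went different ways. Of 19 genes 10 passed as higher and 3 as lower at 3 days, and the difference passed for 8, of which 2 had a higher and 6 a lower effect at 21 days. Egr1 had a log2 fold change of 4.31 ± 0.36 at 3 days and 0.46 ± 0.45 at 21 days, and Junb of 2.35 ± 0.24 and -0.08 ± 0.37. Fos read 0.408, 0.217, 0.102 and 0.434 CPM in sham and 5.85, 6.01, 5.0 and 4.4 CPM in MI at 3 days (log2 fold change 4.2 ± 0.57, adjusted p = 1.8e-05). Fos read 1.41, 1.06 and 1.11 CPM in sham and 4.25, 3.23 and 2.97 CPM in MI at 21 days, again with no overlap (log2 fold change 1.54 ± 0.39, unadjusted p = 0.0012, adjusted p = 0.17). Its effect was nonetheless smaller at 21 days (difference -2.59, adjusted p = 0.022). Myc, a transcription factor of cell growth, and Slc2a1, the basal glucose transporter, had log2 fold changes of 2.42 ± 0.19 and 3.01 ± 0.25 at 3 days and of 0.56 ± 0.54 and 0.59 ± 0.31 at 21 days. The 21-day log2 fold change with sham replicate 1 alone was 1.43 for Egr1, 0.43 for Junb and 1.22 for Myc.

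Markers of leukocytes moved with these genes, and in whole tissue more cells of a type cannot be told apart from more RNA per cell. Of 19 macrophage and monocyte markers 15 passed as higher at 3 days, with a summed level of 108 to 146 CPM in sham and 434 to 824 CPM in MI. At 21 days the sum was 197 to 252 CPM in sham and 370 to 479 CPM in MI, also without overlap, while the median log2 fold change went from 2.55 to 0.6. All 8 neutrophil markers tested at both follow-ups passed as higher at 3 days. Their list summed to 2.54 to 5.1 CPM in sham and 33.3 to 74.8 CPM in MI at 3 days, and to 0.926 to 10.7 CPM in sham and 2.30 to 4.69 CPM in MI at 21 days. Elane, the elastase of early neutrophils, had over 3 counts in none of the 8 libraries at 3 days, and Ly6g, the classical surface marker, in 1.

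Single macrophage genes show how far the effect went back. Itgam, the integrin chain CD11b, read 2.45, 2.41, 2.82 and 2.33 CPM in sham and 54, 37.4, 19.6 and 29 CPM in MI at 3 days. Itgam read 6.53, 6.23 and 8.39 CPM in sham and 11.7, 8.02 and 10.3 CPM in MI at 21 days (difference -3.23, adjusted p = 3.3e-04). Trem2, a lipid receptor of scavenging macrophages, had a log2 fold change of 4.14 ± 0.36 and then 0.54 ± 0.54 (difference -3.53, adjusted p = 0.0013). Mrc1, the mannose receptor of resident macrophages, had a smaller change of 1.3 ± 0.18 at 3 days and 0.23 ± 0.35 at 21 days, and the difference did not pass (adjusted p = 0.1 in edgeR). Hmox1, heme oxygenase, read 57.2, 53.5, 22.3 and 51.8 CPM in MI against 3.06, 2.79, 2.66 and 3.42 CPM in sham at 3 days, with replicate 3 the lowest of the MI libraries, and 4.75, 4.49 and 7.86 against 4.37, 2.47 and 2.18 CPM at 21 days. Its MI and sham libraries did not overlap at either follow-up. The part of a shift in cell makeup in these values was not tested.

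Cell cycle genes rose at 3 days and stood near sham at 21 days when all shams were used. Of 25 genes of mitosis and cytokinesis 21 passed as higher at 3 days, none as lower, with a median log2 fold change of 1.1, and none had an unadjusted p under 0.05 at 21 days (median 0.05, or 0.66 with sham replicate 1 alone). Mki67, the antigen of dividing cells, read 78.5, 99.1, 111 and 139 CPM in sham and 369, 406, 498 and 419 CPM in MI at 3 days (log2 fold change 1.98 ± 0.27, adjusted p = 2.2e-05). At 21 days the values were 3.6, 6.95 and 17.2 CPM in sham and 11.6, 7.21 and 6.82 CPM in MI (difference -2.0, adjusted p = 0.04). The groups overlapped at 21 days, with the highest value in a background-rich sham, and the sign of the 21-day value turned with replicate 1 as the only sham (1.3). Cenpe, a kinesin of the kinetochore, and Plk1, a mitotic kinase, had log2 fold changes of 2.26 ± 0.27 and 1.65 ± 0.31 at 3 days and -0.51 ± 0.64 and -0.6 ± 0.47 at 21 days. Of 24 genes of DNA replication 15 passed as higher at 3 days, and the difference passed for 3, all with a lower effect at 21 days. Replicate 1 as the only sham gave 21-day log2 fold changes of 1.93 for Cenpe.

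Most complement genes tested stood above sham. Of 16 genes tested at both follow-ups 10 passed as higher at 3 days, and at 21 days 10 had an unadjusted p under 0.05 as higher and none as lower, with medians of 1.09 and 1.21. At 21 days 13 of the 16 were positive with all shams and all 16 with replicate 1 alone (median 1.3). With upper-quartile scaling the medians were 0.995 and 0.81. C3, the central component, read 2.38, 6.69, 12.4 and 4.4 CPM in sham and 17.6, 66.6, 125 and 44.5 CPM in MI at 3 days (log2 fold change 3.29 ± 0.66, adjusted p = 0.0017), where the lowest MI library was above the highest sham. In the 21-day libraries it read 16, 15 and 33.1 CPM in sham and 209.6, 85.1 and 134 CPM in MI (log2 fold change 2.74 ± 0.48, unadjusted p = 3.4e-05, adjusted p = 0.079). C4b, a component of the classical pathway, was near 0 in sham at 3 days and read 1.04, 1.74, 1.7 and 1.21 CPM in MI. C4b read 4.05, 3.56 and 7.59 CPM in sham and 55.6, 19.9 and 31 CPM in MI at 21 days (log2 fold change 2.82 ± 0.5, unadjusted p = 3.9e-05, adjusted p = 0.079). The receptors had a smaller effect at 21 days: C3ar1 (above) and C5ar1, the receptor for fragment C5a, had a log2 fold change at 21 days of 0.61 ± 0.38 and -0.38 ± 0.39 after 4.23 ± 0.3 and 3.72 ± 0.36. Of 9 genes of MHC class II presentation 3 passed as higher at 3 days and 4 had an unadjusted p under 0.05 as higher at 21 days (median 0.34, or 0.94 with replicate 1 alone). The same shares of all genes were 19.8% and 6.31%, and with 9 genes the first is not far off. H2-Ab1, a class II chain, read 8.57, 6.13 and 6.62 CPM in sham and 19, 17.4 and 20.2 CPM in MI at 21 days (log2 fold change 1.41 ± 0.4, unadjusted p = 0.0032, adjusted p = 0.2). Cd74, the invariant chain, read 8.65, 7.45 and 6.39 CPM in sham and 16.9, 19.2 and 15.8 CPM in MI. Set against sham replicate 1 only, the 21-day log2 fold change was 0.10 for C5ar1.

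Most genes of the scar matrix stood above sham at 21 days. Of 23 matricellular and adhesive matrix genes 18 passed as higher and 1 as lower at 3 days. At 21 days all 23 had a positive log2 fold change, 21 with an unadjusted p under 0.05, and 16 did not overlap between MI and sham. For comparison, 6.92% of all genes were higher without overlap at 21 days. The medians were 1.6 and 1.9, and the latter was 1.6 to 1.98 under the other scalings and 1.79 with sham replicate 1 alone. Collagens took the same form: 19 of 22 passed as higher at 3 days, all 22 were positive at 21 days and 13 did not overlap, with medians of 1.09 and 1.49. With sham replicate 1 alone 18 of the 22 were positive at 21 days, and the median was 1.21. In whole tissue these counts came with higher fibroblast markers at 21 days, of which the list summed to 840 to 1405 CPM in sham and 2533 to 3706 CPM in MI, against 1681 to 1907 CPM and 2447 to 2760 CPM at 3 days. The part of fibroblast number in these values was not tested.

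By the naming rule, the persistent higher genes to name were Ccn5, Serpina3n, Col8a1, Tubb3 and Ltbp2. Ltbp2, which binds fibrillin and latent TGF-beta, read 1.5, 1.92, 1.38 and 1.57 CPM in sham and 36.2, 45.7, 38 and 43.1 CPM in MI at 3 days (log2 fold change 4.68 ± 0.39, adjusted p = 2.8e-07). At 21 days it read 2.45, 1.52 and 6.97 CPM in sham and 85.6, 16.5 and 30.5 CPM in MI (log2 fold change 3.63 ± 0.66, unadjusted p = 6.1e-05, adjusted p = 0.079; difference -0.96, adjusted p = 0.45). Serpina3n, a protease inhibitor of the acute phase, read 0.99, 1.15 and 2.4 CPM in sham and 14.4, 5.67 and 11.6 CPM in MI at 21 days (log2 fold change 2.84 ± 0.44, unadjusted p = 8.8e-06, adjusted p = 0.079) after a log2 fold change of 4.9 ± 0.68 at 3 days. Neither gene overlapped at either follow-up. Ccn5, a CCN family protein that opposes its relative Ccn2, was resolved by calls and persistent by level at once, since the difference passed while MI and sham did not overlap at 21 days (difference -5.48, adjusted p = 0.0012). It read 4.34, 11.3, 8.58 and 12.6 CPM in MI at 3 days, against 1 sham library with any count. Ccn5 read 3.91, 1.77 and 1.42 CPM in sham and 15.1, 9.31 and 7.13 CPM in MI at 21 days (log2 fold change 2.13 ± 0.54, unadjusted p = 0.0012, adjusted p = 0.17). Col8a1, a short-chain collagen, had log2 fold changes of 4.89 ± 0.53 and 1.72 ± 0.33, and Tubb3, a tubulin of neurons, stayed under 0.5 CPM in all 21-day libraries. Like Ccn5, both were also resolved by calls (difference -3.10, adjusted p = 0.0015 for Col8a1 and -3.60, adjusted p = 0.019 for Tubb3, edgeR). Against sham replicate 1 alone, the 21-day log2 fold change was 4.23 for Ltbp2, 3.46 for Serpina3n and 1.48 for Ccn5.

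Genes of the provisional matrix were far above sham at 3 days, and some overlapped with it at 21 days. Fn1, fibronectin, read 203, 176, 199 and 206 CPM in sham and 1732, 2139, 1851 and 2232 CPM in MI at 3 days. Fn1 read 53.8, 30.1 and 108 CPM in sham and 602, 141 and 254 CPM in MI at 21 days (log2 fold changes 3.34 ± 0.22 and 2.38 ± 0.57; difference -0.89, adjusted p = 0.34). Timp1, an inhibitor of matrix proteases, read 3.53, 7.49, 5.69 and 6.0 CPM in sham and 114, 123, 52.7 and 98.4 CPM in MI at 3 days. Timp1 read 0.703, 0.215 and 2.13 CPM in sham and 8.93, 3.8 and 5.88 CPM in MI at 21 days (4.09 ± 0.4 and 2.69 ± 0.61). Both kept MI above sham in every library at both times. Tnc, tenascin of early wounds, and Lox, which cross-links collagen, overlapped at 21 days, where sham replicate 3 read 12 CPM for each and MI replicate 2 read 8.44 and 10.4 CPM (log2 fold changes 2.11 and 1.55, or 3.4 and 3.03 with sham replicate 1 alone). Col1a1, a chain of the main scar collagen, had a smaller effect at 21 days with all shams (difference -2.07, adjusted p = 0.033) but not past the threshold with replicate 1 alone (-0.54). At 21 days its sham libraries read 51.8, 65.3 and 335 CPM and its MI libraries 440.4, 237 and 280.2 CPM. Col1a2, its partner chain, had log2 fold changes of 1.88 ± 0.2 and 1.91 ± 0.47, and Col3a1, of elastic young scar, of 0.69 ± 0.16 and 1.65 ± 0.44. The 21-day log2 fold change with sham replicate 1 alone was 2.67 for Col1a1.

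Other matrix and signaling genes were also above sham at 21 days. Cilp, a matrix protein of cartilage that fibroblasts of strained hearts make, read 0.816, 1.89, 0.717 and 1.3 CPM in sham and 12.2, 10.8, 14.8 and 10.5 CPM in MI at 3 days. Cilp read 2.93, 3.24 and 14.9 CPM in sham and 131, 42.1 and 53.5 CPM in MI at 21 days (log2 fold change 3.44 ± 0.68, unadjusted p = 1.4e-04, adjusted p = 0.12). Meox1, a homeobox factor of activated fibroblasts, had log2 fold changes of 1.23 ± 0.19 and 1.96 ± 0.35, and its 21-day values were 11.4, 6.81 and 13.8 CPM in sham and 50.5, 37.9 and 35.5 CPM in MI. Postn, periostin of activated fibroblasts, read 12.4, 26.3 and 82.3 CPM in sham and 296, 162 and 124 CPM in MI at 21 days (log2 fold change 2.27 ± 0.65, unadjusted p = 0.003, adjusted p = 0.2). Every MI library was above every sham library for these 3 genes at 21 days. Of 21 genes of TGF-beta signaling 14 passed as higher and 1 as lower at 3 days, and at 21 days 7 had an unadjusted p under 0.05 as higher and 1 as lower. Among all genes 19.8% passed as higher at 3 days and 6.31% were higher at that limit at 21 days. Of the ligands, Tgfb2 had log2 fold changes of 2.41 ± 0.22 and 0.99 ± 0.35 (difference -1.35, adjusted p = 0.04), and Tgfb3 of 1.88 ± 0.27 and 1.73 ± 0.36 (adjusted p of the difference = 1.0). Ace, the enzyme that makes angiotensin II, read 46.5, 19.7 and 16 CPM in sham and 104, 56.9 and 131 CPM in MI at 21 days (1.54 ± 0.16 at 3 days, 1.83 ± 0.46 at 21 days). Krt18, a keratin on the list of epicardium and mesothelium, read 0.0213, 0.0179 and 0.222 CPM in sham and 11.4, 0.937 and 2.9 CPM in MI at 21 days (log2 fold change 6.44 ± 1.04, unadjusted p = 1.5e-05, adjusted p = 0.079). That list summed to 17.9 to 25.9 CPM in sham and 36.1 to 66.4 CPM in MI. Replicate 1 as the only sham gave 21-day log2 fold changes of 4.74 for Cilp, 4.02 for Postn, 1.10 for Ace and 7.87 for Krt18.

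Other matrix genes did not pass at 3 days and stood apart at 21 days. Comp, a cartilage matrix protein that orders collagen fibers, read 0.68, 0.402, 0.461 and 0.651 CPM in sham and 0.446, 0.522, 0.627 and 0.564 CPM in MI at 3 days (-0.02 ± 0.59). Its 21-day values were 1.06, 1.4 and 5.46 CPM in sham and 70.4, 11.2 and 21.4 CPM in MI (log2 fold change 3.75 ± 0.84, unadjusted p = 4.6e-04, adjusted p = 0.13; difference 3.86, adjusted p = 0.029). Cpxm2, a carboxypeptidase-like secreted protein, read 3.63, 1.61 and 4.26 CPM in sham and 44.5, 6.74 and 20.8 CPM in MI at 21 days (difference 3.37, adjusted p = 0.0076), and was at 0.898 CPM or less in all 3-day libraries. For both, the MI values at 21 days ranged widely but lay above all shams. Thbs3, a thrombospondin, read 4.89, 7.24, 7.58 and 8.2 CPM in sham and 5.09, 4.8, 7.7 and 6.03 CPM in MI at 3 days. Thbs3 read 3.96, 1.99 and 3.46 CPM in sham and 17.4, 8.31 and 13.4 CPM in MI at 21 days (log2 fold change 2.06 ± 0.37, unadjusted p = 5.1e-05, adjusted p = 0.079; difference 2.37, adjusted p = 0.0012). Set against sham replicate 1 only, the 21-day log2 fold change was 5.07 for Comp.

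Fbln1, a fibulin of elastic matrix, read 11.2, 14.7, 17.2 and 17 CPM in sham and 13.6, 14.2, 16.9 and 10.8 CPM in MI at 3 days. Fbln1 read 25.9, 15.8 and 30.9 CPM in sham and 106, 80.4 and 92.6 CPM in MI at 21 days (log2 fold change 1.94 ± 0.33, unadjusted p = 2.4e-05, adjusted p = 0.079; difference 2.13, adjusted p = 0.0032). Mfap4, of microfibrils, read 20.1, 17.8 and 38.9 CPM in sham and 114, 118 and 85.2 CPM in MI (difference 1.97, adjusted p = 0.0098). Mfap5, also of microfibrils, read 11.9, 12 and 12.2 CPM in sham and 39.2, 29.5 and 25.8 CPM in MI (difference 1.78, adjusted p = 0.0058). Neither passed at 3 days (0.15 ± 0.27 and -0.32 ± 0.18, edgeR adjusted p = 0.73 and 0.19). Mmp2, a gelatinase of fibroblasts, read 79.6, 37.3 and 44.8 CPM in sham and 216, 128 and 172 CPM in MI (difference 1.8, adjusted p = 0.012). For these 4 genes every MI library was above every sham library at 21 days, and the difference between follow-ups passed for each. Upk3b, an uroplakin that mesothelium also makes, was late by level (0.66, 1.29 and 2.8 CPM in sham and 12.5, 9.96 and 7.5 CPM in MI), but its difference did not pass (adjusted p = 0.095 in edgeR). Against sham replicate 1 alone, the 21-day log2 fold change was 3.96 for Upk3b.

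**Figure D4:**
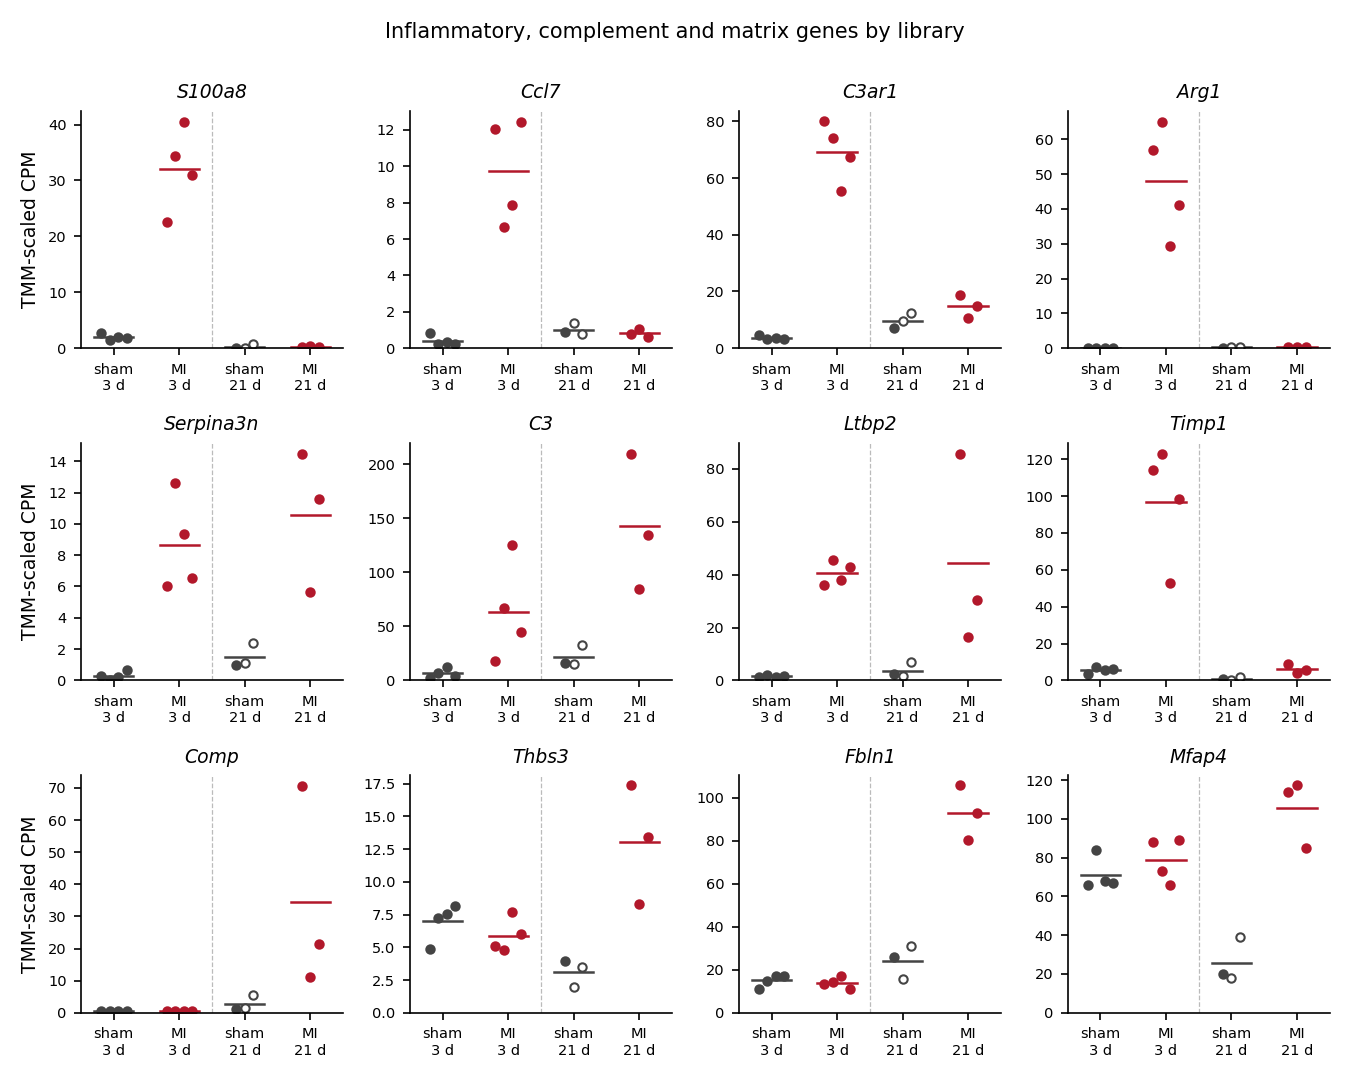
Points give TMM-scaled CPM (y axis, linear, from 0) in each library of the 4 groups, bars the group mean, open points the background-rich 7d-SHAM + 21 replicates 2 and 3, and the dashed line parts the follow-ups, whose levels are not comparable. S100a8, Ccl7, C3ar1 and Arg1 are high in MI at 3 days and near sham at 21 days (Arg1 slightly above it, without overlap), Serpina3n, C3, Ltbp2 and Timp1 are above sham at both, and Comp, Thbs3, Fbln1 and Mfap4 are above sham at 21 days but not at 3 days.

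Genes of wall stress and the fetal heart were divided. Of 22 genes 7 passed as higher and 1 as lower at 3 days, and at 21 days 11 had an unadjusted p under 0.05 as higher, with medians of 0.4 and 1.07, the latter 0.71 with sham replicate 1 alone. For comparison, 19.8% of all genes passed as higher at 3 days and 6.31% were higher at an unadjusted p under 0.05 at 21 days. Nppa, the atrial natriuretic peptide, read 97.1, 155, 149.8 and 108 CPM in sham and 2228, 1648, 726 and 1192 CPM in MI at 3 days (log2 fold change 3.51 ± 0.57, adjusted p = 3.2e-04). In the 21-day libraries it read 85.5, 148 and 955 CPM in sham and 4422, 1857 and 1657 CPM in MI (log2 fold change 2.74 ± 0.88, unadjusted p = 0.007, adjusted p = 0.23). MI was above sham in every library at both follow-ups, with the highest sham value in replicate 3. Nppb, its ventricular relative, overlapped between groups at 3 days and had log2 fold changes of 0.55 ± 0.47 and 0.76 ± 0.44. Ankrd1, a stretch-sensing protein of the sarcomere, read 1628, 1959, 1442 and 1283 CPM in sham and 2467, 2292, 1761 and 2358 CPM in MI at 3 days (0.49 ± 0.33). Ankrd1 read 286, 214 and 297 CPM in sham and 1512, 479 and 594 CPM in MI at 21 days (log2 fold change 1.7 ± 0.44, unadjusted p = 0.0016, adjusted p = 0.17). The 21-day log2 fold change with sham replicate 1 alone was 5.00 for Nppa and 1.52 for Nppb.

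Of Xirp2, Acta1 and Fhl1, which work at the sarcomere and its anchors, the difference passed for Xirp2 only. Xirp2, a scaffold of the intercalated disc, read 396, 607, 509 and 525 CPM in sham and 4258, 6431, 4672 and 5537 CPM in MI at 3 days (log2 fold change 3.36 ± 0.31, adjusted p = 3.2e-07). Xirp2 read 138, 223 and 216 CPM in sham and 700.1, 214 and 219 CPM in MI at 21 days, where only MI replicate 1 stood above the shams (difference -2.31, adjusted p = 0.01). Acta1, skeletal actin of the fetal heart, read 8.84, 17.4, 25.4 and 17.3 CPM in sham and 198, 195, 384 and 409 CPM in MI at 3 days. Acta1 read 588, 71.1 and 109 CPM in sham and 1019, 947 and 620.0 CPM in MI at 21 days (log2 fold change 1.75 ± 0.68, unadjusted p = 0.02, adjusted p = 0.26), with sham replicate 1 close to the lowest MI library. Fhl1, a LIM protein that senses strain, had log2 fold changes of 2.02 ± 0.24 and 1.16 ± 0.35 and did not overlap at either time. Myh7, the fetal myosin heavy chain, read 336, 140.3 and 109.9 CPM in sham and 1020.5, 171 and 427 CPM in MI at 21 days and overlapped, with 0.31 ± 0.24 at 3 days and 1.47 ± 0.57 at 21 days. Replicate 1 as the only sham gave 21-day log2 fold changes of 0.60 for Acta1 and 0.74 for Myh7.

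Light chains of atrial myosin stood apart at 21 days. Myl4, the atrial essential light chain, read 2.01, 1.42, 2.43 and 2.88 CPM in sham and 2.49, 2.42, 2.57 and 1.82 CPM in MI at 3 days (0.09 ± 0.27). Myl4 read 2.87, 2.2 and 9.1 CPM in sham and 77.4, 547 and 408 CPM in MI at 21 days (log2 fold change 6.21 ± 1.4, unadjusted p = 6.4e-04, adjusted p = 0.15; difference 6.21, adjusted p = 0.011). Myl7, the atrial regulatory light chain, read 0.0213, 0.734 and 4.44 CPM in sham and 13.4, 75.7 and 44.6 CPM in MI at 21 days (log2 fold change 4.78 ± 1.87, unadjusted p = 0.027, adjusted p = 0.26). All MI libraries were above all shams for both, and MI replicate 1 was the lowest. Of the 6 atrial markers tested at both follow-ups 5 had an unadjusted p under 0.05 as higher at 21 days, and the list summed to 108 to 981 CPM in sham and 2168 to 4531 CPM in MI. At 3 days the sum, which is mostly Nppa, was 108 to 162 CPM and 735 to 2234 CPM. The median log2 fold change of these 6 at 21 days was 2.75, or 4.06 with replicate 1 alone. Sln, sarcolipin of atrial muscle, had over 3 counts in all 3 MI libraries and in 2 of the 3 sham libraries at 21 days. Bmp10, another marker of atrial muscle, had over 3 counts in no 21-day library, and whether atrial tissue entered these samples was not tested. Set against sham replicate 1 only, the 21-day log2 fold change was 6.93 for Myl4 and 10.98 for Myl7.

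Genes for burning fuel fell together at 3 days. Of 32 genes of fatty acid uptake and oxidation 31 passed as lower and none as higher, with a median log2 fold change of -1.19. At 21 days the median was 0.02, none was lower and 1 higher at an unadjusted p under 0.05, and the difference passed for 8, each with a higher effect at 21 days. By level 21 of the 32 were resolved. With sham replicate 1 alone the 21-day median was -0.58, so how far this list had returned depended on the sham libraries. The TCA cycle (20 of 23 lower at 3 days, median -0.98, then 0.11) and the sarcomere list (17 of 22 lower, median -0.87, then 0.04) moved alike, and both stood at -0.55 and -0.33 at 21 days with replicate 1 alone.

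Acat1, which works in ketone and isoleucine breakdown, read 313, 283, 280.1 and 273 CPM in sham and 107, 104, 162 and 111 CPM in MI at 3 days (log2 fold change -1.25 ± 0.18, adjusted p = 2.5e-05), where MI replicate 3 was the highest. At 21 days it read 183, 127 and 71.6 CPM in sham and 136, 122 and 162 CPM in MI (difference 1.46, adjusted p = 0.022). Sham replicate 1 read above all MI libraries at 21 days and sham replicate 3 below them. Idh3g and Idh3b, subunits of isocitrate dehydrogenase, had log2 fold changes of -1.29 ± 0.12 and -1.44 ± 0.15 at 3 days and 0.36 ± 0.41 and 0.22 ± 0.45 at 21 days, and both differences passed (difference 1.72, adjusted p = 0.01; difference 1.72, adjusted p = 0.02). Etfa, Hadh and Slc25a20, which pass electrons from, oxidize and import fatty acids, fell by 1.26, 1.1 and 1.05 on the log2 scale at 3 days and stood at -0.27, -0.16 and -0.08 at 21 days, but their differences did not pass (adjusted p = 0.065, 0.12 and 0.14 in edgeR). With sham replicate 1 alone they stood at -0.13, -0.65 and -0.73.

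The regulators of these genes were lower at 3 days and split at 21 days. Of 17 regulators 11 passed as lower and 1 as higher at 3 days. Ppargc1a, the coactivator of mitochondrial genes, read 196, 167, 144 and 153 CPM in sham and 26, 26.8, 63.5 and 27 CPM in MI at 3 days (log2 fold change -2.2 ± 0.29, adjusted p = 2.0e-05). Its 21-day values were 60.4, 96 and 91.5 CPM in sham and 35, 51.8 and 45.1 CPM in MI (log2 fold change -0.91 ± 0.33, unadjusted p = 0.014, adjusted p = 0.24). All MI libraries were below all shams at both follow-ups, and the effect was smaller at 21 days (difference 1.37, adjusted p = 0.049), which makes it resolved by calls but not by level. Ppara, the fatty acid receptor, had log2 fold changes of -1.34 ± 0.29 and 0.35 ± 0.37 (difference 1.76, adjusted p = 0.026), and Klf15, a factor of muscle metabolism, of -2.13 ± 0.29 and 0.9 ± 0.63 (difference 3.1, adjusted p = 0.0092). Klf15 read 16.2, 2.49 and 4.22 CPM in sham and 5.58, 14.4 and 23 CPM in MI at 21 days, with overlap, and with sham replicate 1 alone the 21-day value was negative for Klf15, Acat1, Idh3g and Idh3b (-0.15, -0.34, -0.31 and -0.58). Pdk4, the kinase that shuts pyruvate out of the TCA cycle, read 439, 666, 556 and 254 CPM in sham and 36, 73.7, 68.4 and 105 CPM in MI at 3 days (log2 fold change -2.76 ± 0.38, adjusted p = 5.0e-05). Pdk4 read 214, 131 and 66.6 CPM in sham and 58.1, 117 and 125 CPM in MI at 21 days (difference 2.37, adjusted p = 0.015). Fbp2, the muscle fructose bisphosphatase, went from -2.36 ± 0.23 to -0.06 ± 0.64. Against sham replicate 1 alone, the 21-day log2 fold change was -1.06 for Pdk4 and -1.07 for Fbp2.

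Subunits of the respiratory chain fell at 3 days. All 30 nuclear subunits passed as lower at 3 days (median -1.08), and at 21 days 5 were lower and none higher at an unadjusted p under 0.05 (median -0.14). That median was -0.65 with sham replicate 1 alone, where 2 of the 30 were positive, and 0.25 without replicate 1. The difference passed with a higher effect at 21 days for 8 of 32 genes of fatty acid oxidation and for none of these 30 in edgeR. Among all genes 1.95% did so, and none of 30 lies near that share. Whether these shares differ was not tested. The median difference was 1.01 for these 30, 1.06 for the TCA cycle and 1.25 for fatty acid oxidation. Cox8b, a subunit of complex IV, read 93.4, 128, 112 and 116 CPM in sham and 27.9, 27.8, 39.7 and 25.8 CPM in MI at 3 days (log2 fold change -1.89 ± 0.21, adjusted p = 1.1e-06). Cox8b read 153, 555 and 364 CPM in sham and 41.7, 194 and 101 CPM in MI at 21 days (log2 fold change -1.67 ± 0.54, unadjusted p = 0.0071, adjusted p = 0.23). MI replicate 2 at 21 days was above sham replicate 1. Ndufa5, of complex I, and Uqcrh, of complex III, were persistently lower by level, with log2 fold changes of -1.3 ± 0.19 and -1.1 ± 0.15, then -1.19 ± 0.49 and -1.24 ± 0.42. With sham replicate 1 alone the 21-day values of Ndufa5 and Uqcrh were -0.94 and -0.78, under the limit of 1 in size. mt-Nd1, encoded in mitochondria, read 15828, 32782 and 28896 CPM in sham and 5808, 15274 and 11735 CPM in MI at 21 days (log2 fold change -1.24 ± 0.51, unadjusted p = 0.027, adjusted p = 0.26), and moved at 3 days with the share of mitochondrial counts given above. Reads of mt-Nd1, Uqcrh, Cox6a1, Ly6c2 and Hmga1b can be split with near-identical genes or pseudogenes, so their values are uncertain. The 21-day log2 fold change with sham replicate 1 alone was -0.41 for Cox8b and -0.50 for mt-Nd1.

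Aqp4 and Yipf7, genes outside metabolism, were persistently lower by level. Aqp4, the water channel, read 68.3, 51, 60.7 and 57.8 CPM in sham and 13, 4.14, 15.7 and 4.08 CPM in MI at 3 days (log2 fold change -2.69 ± 0.39, adjusted p = 9.0e-05). Aqp4 read 8.73, 11.4 and 12 CPM in sham and 3.99, 5.2 and 4.68 CPM in MI at 21 days (log2 fold change -1.21 ± 0.37, unadjusted p = 0.0052, adjusted p = 0.22). Yipf7, a Golgi protein of muscle, had log2 fold changes of -1.66 ± 0.18 and -1.01 ± 0.4. Neither overlapped at either follow-up. With replicate 1 as the only sham both were under the limit of 1 in size at 21 days (-0.88 for Aqp4 and -0.64 for Yipf7). Pln, phospholamban, which brakes the calcium pump, had -1.94 ± 0.19 and -1.11 ± 0.46, and Kcnj2, the inward rectifier potassium channel, -0.75 ± 0.2 and -1.12 ± 0.35. Myl2, the ventricular light chain, and Mb, myoglobin, went from -1.16 ± 0.16 and -1.6 ± 0.20 to 0.05 ± 0.42 and -0.12 ± 0.52. Cardiomyocyte markers summed to 53946 to 59768 CPM in sham and 29287 to 64499 CPM in MI at 3 days, and to 21662 to 32571 CPM and 25140 to 34209 CPM at 21 days. Replicate 1 as the only sham gave 21-day log2 fold changes of -0.22 for Pln and -0.48 for Myl2.

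**Figure D5:**
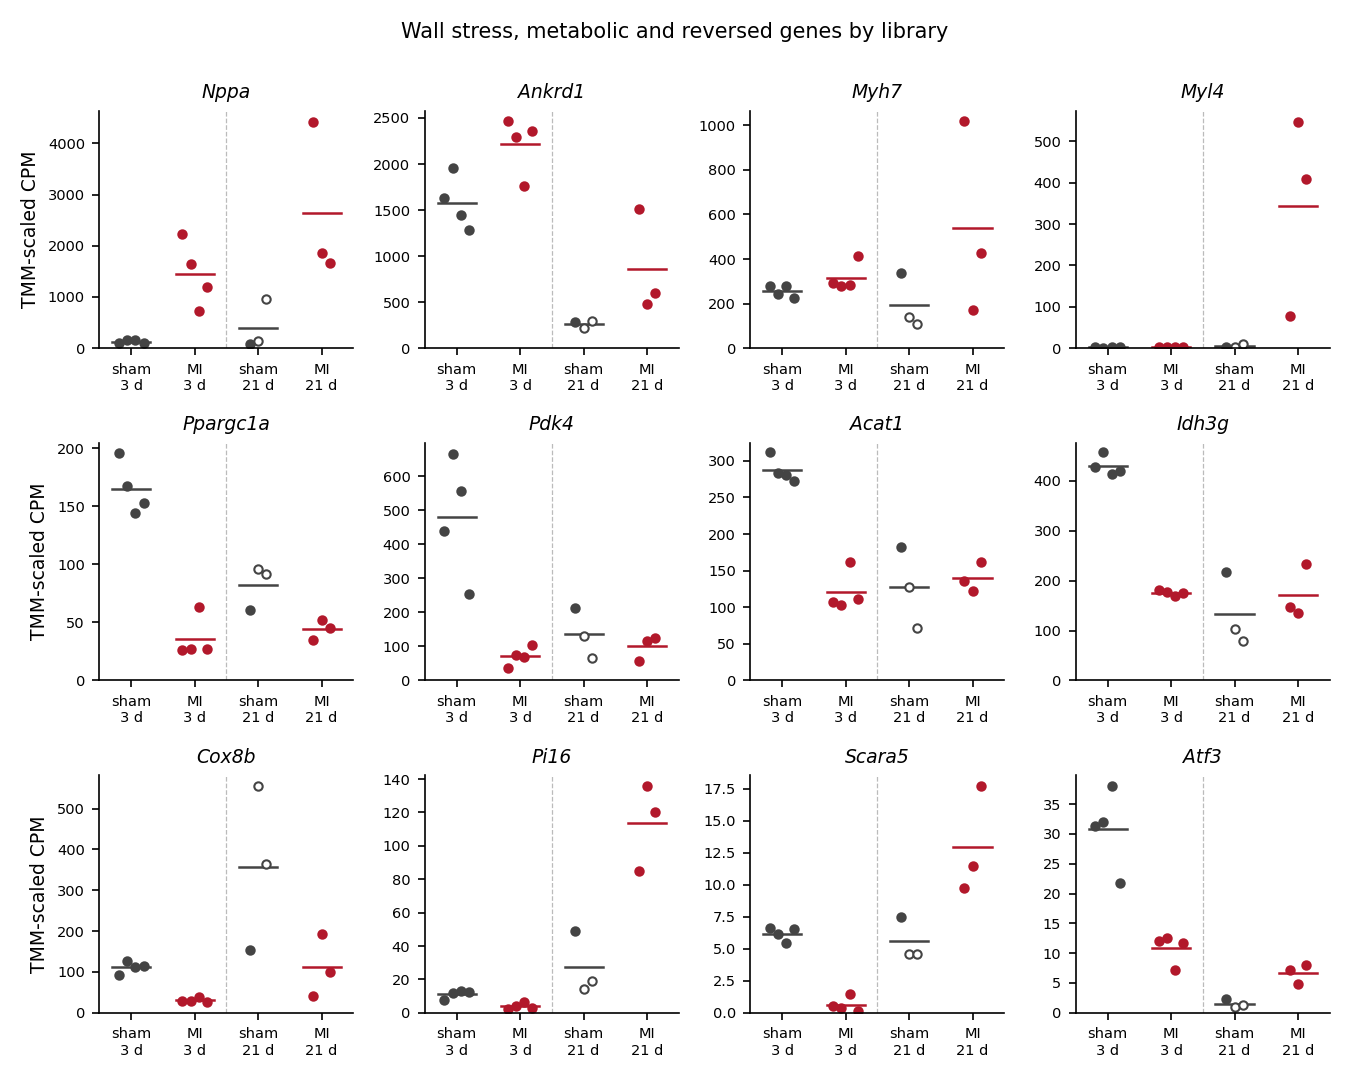
Points give TMM-scaled CPM (y axis, linear, from 0) in each library, bars the group mean, open points the background-rich 7d-SHAM + 21 replicates 2 and 3, and the dashed line parts the follow-ups. Nppa is above sham at both follow-ups and Myl4 only at 21 days, Pdk4, Acat1 and Idh3g are below sham at 3 days and overlap with it at 21 days, Ppargc1a is below sham at both, and Pi16, Scara5 and Atf3 are below sham at 3 days and above it at 21 days.

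Of the genes followed by level, 2281 had risen and 1021 had fallen at 3 days. Among all genes tested at both follow-ups, 3.42% met the 21-day criterion downwards and 3.15% upwards. Reversal was rarer than these shares among the genes followed. Reversal by level, which asks for no overlap at 21 days only, was seen in 56 genes. Of these 15 had fallen and 41 had risen at 3 days (56 and 24 with sham replicate 1 alone). Pi16, a marker of resting adventitial fibroblasts, read 7.48, 11.8, 12.8 and 12.5 CPM in sham and 2.0, 3.77, 6.35 and 3.02 CPM in MI at 3 days (log2 fold change -1.56 ± 0.32, adjusted p = 8.9e-04). In the 21-day libraries it read 48.8, 14.5 and 18.9 CPM in sham and 84.8, 136 and 120.1 CPM in MI (log2 fold change 2.05 ± 0.5, unadjusted p = 9.5e-04, adjusted p = 0.16; difference 3.67, adjusted p = 5.1e-04). Scara5, a ferritin receptor of the same resting fibroblasts, read 6.59, 6.19, 5.48 and 6.51 CPM in sham and 0.557, 0.348, 1.45 and 0.174 CPM in MI at 3 days (log2 fold change -3.28 ± 0.56, adjusted p = 2.1e-04). Scara5 read 7.5, 4.6 and 4.62 CPM in sham and 9.72, 11.5 and 17.7 CPM in MI at 21 days (difference 4.57, adjusted p = 2.2e-04). Both were below every sham at 3 days and above every sham at 21 days. Of the 10 fibroblast markers, among them Pi16, 5 passed as higher and 4 as lower at 3 days, while at 21 days all 10 were positive and 8 did not overlap, and the difference passed for 6 of them. Among all genes 6.92% were higher without overlap at 21 days, and the difference passed for 5.03%. Set against sham replicate 1 only, the 21-day log2 fold change was 1.25 for Pi16.

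Atf3, a stress factor of the Atf family, read 31.4, 32.1, 38 and 21.8 CPM in sham and 12.1, 12.5, 7.13 and 11.7 CPM in MI at 3 days. Atf3 read 2.32, 1.04 and 1.24 CPM in sham and 7.13, 4.75 and 8.02 CPM in MI at 21 days (log2 fold change 2.09 ± 0.53, unadjusted p = 0.0012, adjusted p = 0.17), after a 3-day log2 fold change -1.51 ± 0.31, adjusted p = 0.0011. Ly6c2, an antigen of inflammatory monocytes, took the other way, at 1.91, 1.08, 0.353 and 0.434 CPM in MI against 0.17, 0, 0.102 and 0.109 CPM in sham at 3 days, and 0.442, 0.55 and 0.267 CPM against 0.894, 1.07 and 1.78 CPM at 21 days. Efhd1, a calcium-binding protein of mitochondria, went from -3.26 ± 0.42 to 0.04 ± 0.39, and Sult1a1, a sulfotransferase, from -2.56 ± 0.21 to 0.36 ± 0.38. Gbp10, a guanylate-binding protein that interferon induces, read 29.9, 1.24, 3.3 and 0.923 CPM in sham and 0.575, 0.387, 0.294 and 0.521 CPM in MI at 3 days, with sham replicate 1 far above the other shams. Its log2 fold change at 21 days was 0.96 ± 0.63. Tcf15, a factor of endothelium and mesoderm, and Mindy4b-ps were resolved by calls, with -2.37 ± 0.22 and -4.3 ± 0.58 at 3 days and -0.52 ± 0.5 and -0.77 ± 0.51 at 21 days. Against sham replicate 1 alone, the 21-day log2 fold change was -0.07 for Efhd1 and 2.83 for Gbp10.

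The late lower genes stood below sham in every MI library at 21 days, with no overlap by their definition. Sox12, a transcription factor, read 3.19, 4.52, 4.07 and 3.42 CPM in sham and 3.01, 3.02, 5.37 and 3.45 CPM in MI at 3 days. Sox12 read 7.6, 17.5 and 15.7 CPM in sham and 2.79, 6.17 and 4.41 CPM in MI at 21 days (log2 fold change -1.61 ± 0.4, unadjusted p = 9.7e-04, adjusted p = 0.16). Cox6a1, a subunit of complex IV outside muscle, read 36.6, 59.99 and 39.4 CPM in sham and 5.99, 28.9 and 13.5 CPM in MI at 21 days (log2 fold change -1.49 ± 0.48, unadjusted p = 0.0067, adjusted p = 0.22). Lekr1 read 5.81, 12.3 and 13.9 CPM in sham and 2.89, 5.72 and 3.8 CPM in MI at 21 days, and Smco4 7.67, 11.8 and 10.8 CPM in sham and 1.98, 7.1 and 3.61 CPM in MI. Cxxc4, an inhibitor of Wnt signaling, read 4.05, 7.88 and 5.91 CPM in sham and 2.19, 3.35 and 1.94 CPM in MI. In each of these 5 genes sham replicate 1 was the lowest sham and still above all MI libraries. With replicate 1 as the only sham the log2 fold change was -1.15 for Cox6a1, and under the limit of 1 in size for Sox12, Lekr1, Smco4 and Cxxc4 (-0.74, -0.46, -0.83 and -0.66). No difference between follow-ups passed for any of them (adjusted p = 0.058 to 0.39 in edgeR).

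Some genes that the study names fell in other places. Cdkn1a, the cell cycle inhibitor p21, and Cebpb, a factor of the acute phase, passed at neither follow-up (-0.36 ± 0.22 and 0.51 ± 0.32 for Cdkn1a, -0.03 ± 0.21 and 0.21 ± 0.43 for Cebpb). Hmga1b, a chromatin protein of growing cells, read 3.19, 4.21, 3.64 and 4.07 CPM in sham and 0.241, 3.52, 2.43 and 0.0868 CPM in MI at 3 days. Hmga1b read 6.39, 21.8 and 1.51 CPM in sham and 0.0924, 0.356 and 0.356 CPM in MI at 21 days, with MI libraries far apart at 3 days and sham libraries far apart at 21 days. Anxa1, an annexin that ends inflammation, had log2 fold changes of 1.6 ± 0.19 and 1.08 ± 0.47. Prelp, a proteoglycan of basement membranes, had 1.45 ± 0.21 and 1.51 ± 0.34. The 21-day log2 fold change with sham replicate 1 alone was -4.59 for Hmga1b and 2.15 for Anxa1.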

How the data were processed

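RNA-seq of 28 left ventricular samples was deposited as 1 table per library, and the 14 libraries of mice operated at day 7 are described. The authors deposited raw gene counts beside CPM, RPKM and log2 columns in each table. The deposited CPM, RPKM and log2 values were not used in tests. The submitters' processing notes name TopHat2 2.0.11, Bowtie2 2.2.2, Cufflinks 2.2.1 and GRCm38; the counting tool and its strand setting were not stated, so overlapping and antisense genes cannot be told apart. Both lane files of 7d-SHAM + 21 replicate 3 were summed. Of 45318 gene rows, 44671 were named from GENCODE.

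Counts were scaled by TMM, filtered by filterByExpr and tested with edgeR 4.0.16 (robust quasi-likelihood, R 4.3.3), with all groups of a follow-up in 1 fit and all 28 libraries in the fit of the difference. P-values were adjusted by Benjamini-Hochberg over all genes tested, at 0.05. Log2 fold changes are given ± SE, and values per library are TMM-scaled CPM. DESeq2 1.42.0 and limma 3.58.1 were alternatives, beside other scalings, filters and left-out libraries. The code was tested on simulated data. Members and lists were chosen with earlier results of these data known. Genes were named by rule: in each class and direction the 5 largest changes among protein-coding genes of at least 5 CPM; from each list the 3 smallest p at 3 days and the 2 smallest at 21 days; genes named by the study; and wall stress, metabolic regulator and collagen genes for their level. Some genes that the rule would name are not reported here. Promoters came from RefSeq (GRCm38.p6). The SE includes the spread between libraries as estimated in the fit, and floors cover counting error only.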

Additional observations from a re-analysis of the deposited data

Results flagged for a closer look

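A library stood far from the others of its group, by Dixon's criterion at the 95% level, in 20 of 240 groups of 4 libraries tested over the named genes, where chance gives about 1 in 20, and groups of 3 were not tested. In 7d-SHAM + 3 replicate 4 this was Saa3 (0.109 CPM), Ccn5 (0.163 CPM), Bgn (48.3 CPM) and Cebpb (7.11 CPM). In 7d-SHAM + 3 replicate 2 this was Hal (0.248 CPM), Spp1 (0.867 CPM), Mfap4 (84.2 CPM) and Uqcrh (734 CPM). In 7d-MI + 3 replicate 3 this was Hmox1 (22.3 CPM), Ppargc1a (63.5 CPM), Ppara (8.44 CPM), Acat1 (162 CPM), Cox8b (39.7 CPM) and Atf3 (7.13 CPM). In 7d-SHAM + 3 replicate 1 this was H2-Ab1 (4.35 CPM), Col1a2 (228 CPM) and Gbp10 (29.9 CPM). In 7d-MI + 3 replicate 1 this was Bgn (234 CPM). In 7d-MI + 3 replicate 4 this was Myh7 (412 CPM) and Cxxc4 (1.91 CPM). Replicate 3 of 7d-MI + 3 accounted for 6 of these values.

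The MI effect differed between follow-ups by a test of the difference itself (edgeR, adjusted p under 0.05) in the genes that follow, each with its log2 effect at 21 days minus that at 3 days. It was lower at 21 days for S100a8 (-3.52), Saa3 (-8.68), Ccl7 (-4.81), Clec4e (-6.76), Hal (-7.41), Adam8 (-5.83), Cemip (-6.86), Spp1 (-7.94), Arg1 (-7.99), Trem2 (-3.53), Itgam (-3.23), Ly6c2 (-4.79), Csf3r (-3.24), C3ar1 (-3.54), C5ar1 (-4.02), Hmox1 (-2.98), Osmr (-1.85), Mmp8 (-6.72), Plau (-2.16), Egr1 (-3.77), Junb (-2.36), Myc (-1.75), Fos (-2.59), Slc2a1 (-2.35), Mki67 (-2.0), Cenpe (-2.65), Plk1 (-2.17), Ccn5 (-5.48), Col8a1 (-3.10), Tubb3 (-3.60), Bgn (-1.37), Col1a1 (-2.07), Tgfb2 (-1.35) and Xirp2 (-2.31). It was higher at 21 days for Comp (3.86), Cpxm2 (3.37), Thbs3 (2.37), Fbln1 (2.13), Mfap4 (1.97), Mfap5 (1.78), Mmp2 (1.80), Pi16 (3.67), Scara5 (4.57), Myl4 (6.21), Ppargc1a (1.37), Klf15 (3.10), Ppara (1.76), Pdk4 (2.37), Acat1 (1.46), Fbp2 (2.35), Idh3b (1.72), Idh3g (1.72), Mybpc3 (2.12), Mindy4b-ps (3.61), Tcf15 (1.91), Gbp10 (5.37), Efhd1 (3.36), Sult1a1 (2.98) and Atf3 (3.66). Sprr1a gave -16.72, which depends on the prior count because no sham library had a count at 3 days, and is no size. With 7d-SHAM + 21 replicate 1 as the only sham, 44 of these 60 genes lost the call, Cemip and Mmp8 turned in sign, and 14 kept it. Cemip and Mmp8 had no count in that sham, so their turn in sign depends on the prior count and is no size. Kit and follow-up cannot be told apart in any difference listed here, beyond the comparison with the sham of the same kit.

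The MI effect at 3 days also differed between mice operated at 7 days and at 1 day, by the same kind of test, which is listed here only for those named genes that the study also names. The log2 effect after the operation at 7 days minus that after the operation at 1 day was Hal (4.87), Prelp (1.04), Postn (1.17), Anxa1 (0.82), Ppargc1a (-1.78) and Klf15 (-2.22). In 1d-SHAM + 3 replicate 3 Xist had 4260 counts, Ddx3y 6 and Uty 0, unlike a male library. Receptor genes held 47.0 to 360 CPM in the 3-day libraries of day 1 and 30.7 to 43.5 CPM in those of day 7. These 6 values were not fitted again without that library, and the part of the background in them was not tested.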

How the results depend on the processing

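The 7d-SHAM + 21 group limits all results at 21 days, since 2 of its 3 libraries were rich in background and the third differs from them. Covariate and left-out-pair settings were chosen after seeing the data. Genes changed at 21 days (0) became 1 with scaling without the 20 most abundant genes, 383 with no filter, 988 with DESeq2, 14 with limma-voom, 10921 with sample quality weights, 23 with the share of receptor counts as a covariate, 8 without both background-rich shams, and 0 to 5903 leaving out each library in turn. Among the latter, 5903 was without 7d-SHAM + 21 replicate 1, 11 without its replicate 3 and 24 without 7d-MI + 21 replicate 2. Genes with a difference (1320) became 2048 with upper-quartile scaling, 3287 with DESeq2, 732 with limma-voom, 9986 with weights, 596 with the covariate, 124 without both shams, 2123 with separate fits, and 444 (without 7d-MI + 21 replicate 3) to 5595 (without 7d-SHAM + 21 replicate 1) leaving out each library. Without 7d-MI + 3 replicate 2, 7d-SHAM + 21 replicate 2 or 7d-SHAM + 21 replicate 3 it was 806, 712 and 490. At 3 days leaving out each library gave 5656 to 6326 genes.

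By calls, persistent (0) became 1 without the 20 most abundant genes, 190 with no filter, 314 with DESeq2, 11 with limma-voom, 2479 with weights, 12 with the covariate, 5 without both shams, and 0 to 1050 leaving out each library. Resolved (269) became 421 with a mean count of at least 50, 591 with DESeq2, 157 with limma-voom, 612 with weights, 44 without both shams, 435 with separate fits, and 110 to 341. Reversed (827) became 1246 with upper-quartile scaling, 1753 with DESeq2, 501 with limma-voom, 3655 with weights, 340 with the covariate, 72 without both shams, and 294 to 2322. Late (0) became 173 with no filter, 426 with DESeq2, 3 with limma-voom, 4598 with weights, 10 with the covariate, 3 without both shams, and 0 to 3012.

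By level, persistent (344) became 201 with a mean count of at least 50, 922 without both shams, 715 with a fold limit of 1.5, and 281 to 722 leaving out each library. Resolved (1411) became 868 without both shams, 2735 with a fold limit of 1.5, and 959 to 1504. Reversed (56) became 20 with a mean count of at least 50, 35 with protein-coding genes only, 104 with weights, 124 with a fold limit of 1.5, and 44 to 485. Late (367) became 813 with no filter, 150 with a mean count of at least 50, 208 with protein-coding genes only, 234 with the covariate, 908 without both shams, 712 with a fold limit of 1.5, and 375 to 3209. The cause was not tested. Of 60 named genes with a called difference 44 lost the call without both background-rich shams. The difference turned in sign without both background-rich shams for Cemip (3.31) and Mmp8 (1.11). Whether the replicate numbers in the titles pair the 21-day libraries could not be decided with 3 libraries in a group. Pearson r of deviations from the group mean was 0.16, 0.26 and -0.11 for same-numbered libraries and -0.25 to 0.16 for the others. With the replicate block 0 genes passed at 21 days, the same as without it.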
